A study of Mus musculus with 4 samples.

Results

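The regions described here are stretches of chromatin that were called open in both libraries of young hematopoietic stem cells and in neither library of aged ones. Narrow peaks of 4 ATAC-seq libraries were merged wherever they overlapped or touched. A merged region was kept when each young library had a narrow peak there with a q up to 0.05 (a −log10 q of 1.3), and neither aged library had a narrow peak of any strength. This left 1308 of 181668 merged regions (0.72%), called young-only below, or 1.64% of the 79633 regions that passed the same minimum in both young libraries. The regions were chosen by the peak calls and q values of all 4 libraries, so their presence in young and absence in aged cells is a definition and carries no test. All cells were long-term hematopoietic stem cells sorted from wild-type C57BL/6 mice. The young group was 4 to 5 months old and the aged group 20 to 22 months old, with 2 libraries in each (replicates 1 and 2) and 25000 sorted cells per library. The comparison asks which open sites depend on age. The labels call the libraries biological replicates, and the number of mice behind each is not given there.

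Hematopoietic stem cells are rare bone marrow cells that renew themselves and give rise to all blood lineages. With age they increase in number, make fewer lymphoid cells and serve less well on transplantation. In ATAC-seq the Tn5 transposase cuts DNA that is not wrapped on nucleosomes, so that reads pile up at promoters and enhancers. Promoters are open in most cell types, whereas distal elements differ more between cell types and states. A narrow peak marks a compact pile-up, and a broad peak joins weaker neighbouring signal into a longer stretch.

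Sequences were at hand for gene starts only, so they are shown for members at a promoter. Of the 1308 regions, 17 overlapped a RefSeq promoter window of GRCm38.p6, which runs from 250 bases before to 50 bases after a gene start. The stretches printed below lie before the gene start. Gm5640, a predicted gene, is shown as the strongest of the 17. Cxcr2 (a chemokine receptor of neutrophils), Clec5a (a myeloid surface lectin), Hdc (the enzyme that makes histamine) and Il33 (an alarm cytokine) are shown as promoters of known blood or immune genes, picked after their values were seen. Each runs 5′ to 3′ on the gene's own strand, and capitals mark a match to one of the 6 motifs described further on.
Gm5640 (chrX:74645636-74645885, minus strand): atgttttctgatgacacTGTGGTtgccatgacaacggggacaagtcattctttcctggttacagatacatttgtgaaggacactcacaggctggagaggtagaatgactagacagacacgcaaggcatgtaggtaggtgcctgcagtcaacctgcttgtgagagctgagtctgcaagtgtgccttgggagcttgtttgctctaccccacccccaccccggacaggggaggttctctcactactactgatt
Cxcr2 (chr1:74153744-74153993, plus strand): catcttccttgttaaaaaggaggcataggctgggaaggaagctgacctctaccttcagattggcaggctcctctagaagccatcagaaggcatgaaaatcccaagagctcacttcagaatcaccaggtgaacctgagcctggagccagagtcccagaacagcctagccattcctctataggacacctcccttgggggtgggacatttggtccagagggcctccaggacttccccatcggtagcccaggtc
Clec5a (chr6:40585806-40586055, minus strand): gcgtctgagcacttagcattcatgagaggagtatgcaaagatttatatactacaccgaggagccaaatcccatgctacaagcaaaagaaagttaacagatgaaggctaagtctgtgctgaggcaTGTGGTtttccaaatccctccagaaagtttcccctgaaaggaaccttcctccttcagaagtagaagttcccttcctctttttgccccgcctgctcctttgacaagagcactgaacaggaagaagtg
Hdc (chr2:126618679-126618928, minus strand): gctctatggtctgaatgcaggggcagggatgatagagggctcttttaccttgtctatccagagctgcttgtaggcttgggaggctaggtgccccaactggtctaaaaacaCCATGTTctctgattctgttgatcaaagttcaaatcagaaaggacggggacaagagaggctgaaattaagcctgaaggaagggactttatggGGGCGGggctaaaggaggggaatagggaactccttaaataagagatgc
Il33 (chr19:29924863-29925112, plus strand): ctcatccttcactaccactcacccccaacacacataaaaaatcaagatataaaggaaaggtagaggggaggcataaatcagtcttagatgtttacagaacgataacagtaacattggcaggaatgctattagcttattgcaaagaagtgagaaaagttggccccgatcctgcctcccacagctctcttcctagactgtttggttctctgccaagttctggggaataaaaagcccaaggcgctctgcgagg

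The member at Gm5640 spanned chrX:74645627-74646026 and had a −log10 q of 10.8 in young replicate 1 and 8.07 in young replicate 2. No aged narrow peak lay within 80217 bp of it, but both aged libraries had a broad peak there. The Cxcr2 member (chr1:74153415-74154013) had similar values in both libraries, 3.08 and 3.14, with an aged narrow peak 1583 bp away. At Clec5a the values were 2.41 and 7.14, and at Hdc they were 1.75 and 6.23, so in both cases young replicate 2 was the stronger library. At Il33 they were 3.10 and 1.55, with young replicate 1 the stronger. All 4 of these latter regions had a broad peak in at least 1 aged library, and Cxcr2 and Hdc in both.

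The number of young-only regions was set beside the same count for every other pair of libraries. There are 6 such pairs, which make up the 3 ways to split 4 libraries into pairs. Both aged libraries shared 3158 regions that neither young library had (1.74% of merged regions). The 4 pairs of different age held 615, 1352, 1809 and 2067 regions, with the lowest count for the 2 libraries numbered replicate 1 and the highest for the 2 numbered replicate 2. The 1308 young-only regions thus lay inside the range of the mixed-age pairs, while the aged-only count lay above it. Summed over both sides, the split by age gave 4466 regions, the split by replicate number 2682 and the crossed split 3161. Young-only regions amounted to 0.414 per aged-only region and 0.723 per region of the median of the other 5 pairs.

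Pairs with young replicate 1 were the smaller ones, and that library had the shortest narrow list, with 106186 intervals against 116700 to 133131 in the others. When every library was cut to its 106186 strongest narrow peaks, the young-only count was 2185 and its ratio to the median other pair was 1.13. With the 50000 strongest peaks of each library it was 1825, and young-only regions then outnumbered aged-only ones with a ratio of 1.08. Of those 1825 regions, 5 had the same start and end as a region of the 1308.

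**Figure D1:**
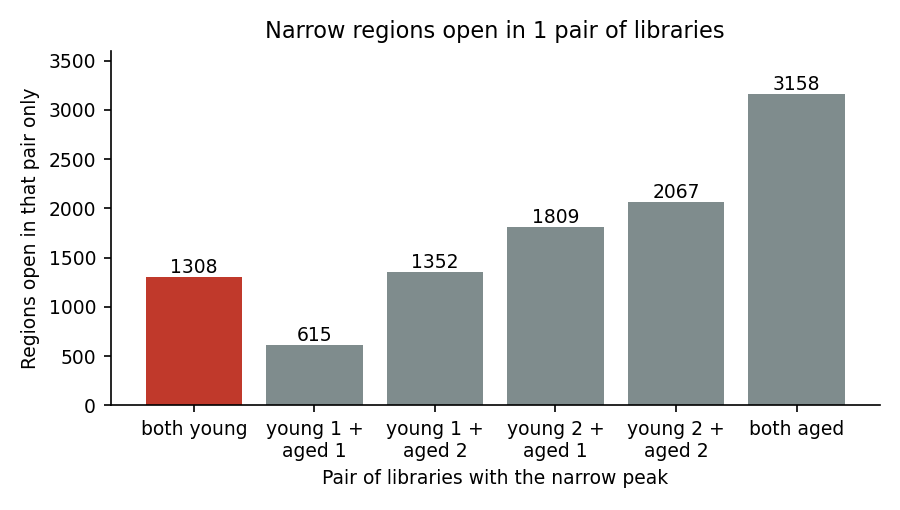
Bars show how many merged regions had a narrow peak with a q up to 0.05 in both libraries of a pair and no narrow peak in the other 2 libraries. The young pair (red, 1308) lies within the 615 to 2067 of the mixed-age pairs, and the aged pair is highest at 3158.

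Young-only regions were mostly weak peaks in both young libraries. The strength of regions of the other library pairs was not measured, so this trait is not shown to be particular to the young-only ones. The −log10 q ran from 1.3 over a median of 2.99 to 15 in young replicate 1, and from 1.31 over 2.95 to 15.3 in young replicate 2. The fold enrichment over background, the authors' own value for each peak, had a median of 3.32 in young replicate 1 and 3.47 in young replicate 2, whereas all peaks of these libraries past the same q minimum had medians of 5.31 and 5.19. By −log10 p, the median member stood at percentile 26.9 of the first list and 36.3 of the second. Members in the upper part of their own list, above its median, numbered 60 in young replicate 1 and 184 in young replicate 2. A −log10 q of at least 2 in both libraries was reached by 760 regions (58.1%) and of at least 5 by 77 (5.89%).

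The 2 young peaks of a member lay at nearly the same spot. They had to overlap or touch to form a region without an aged peak, so closeness follows in part from the rule. The same measures were not taken for the other library pairs, so the values below are descriptions only. The shared length was 96.0% of the shorter peak in the median, and 1197 regions (91.5%) shared at least 50% of it. The peak summits lay 34 bp apart in the median and within 100 bp of each other in 79.4% of regions. Strength was less alike: over the 1308 regions Spearman's rho of −log10 q between the libraries was 0.294 and Pearson's r of log2 fold was 0.45. These correlations are across regions of 2 libraries, with a minimum imposed on both, and are descriptions only. Young replicate 1 gave the higher −log10 q in 756 regions.

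**Figure D2:**
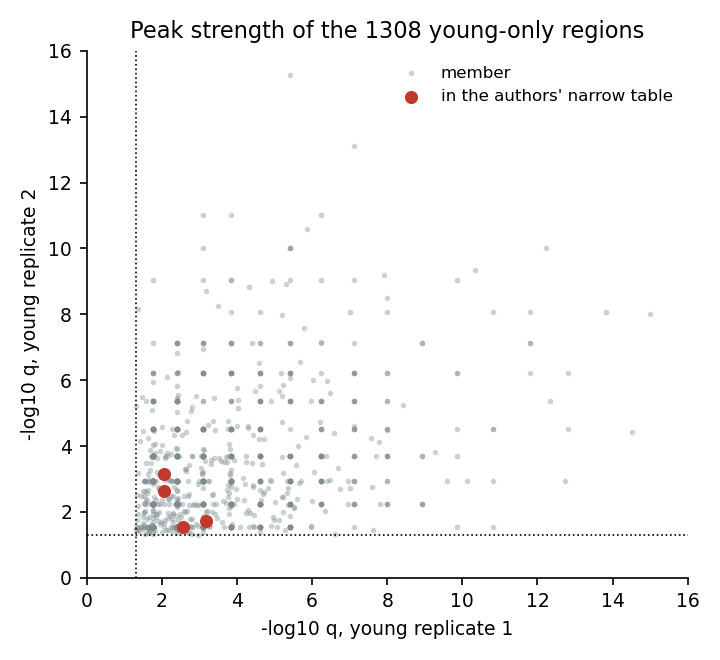
Each point is 1 of the 1308 young-only regions, with its −log10 q in young replicate 1 on the x axis and in young replicate 2 on the y axis. Dotted lines mark the minimum, a q of 0.05. Most points crowd near that corner on a grid of repeated values, and the 4 regions listed in the authors' narrow table (red) are among the weak ones.

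The member with the highest lower value of the 2 libraries lay 6593 bp from an end of Htra3, a secreted serine protease gene, at chr5:35645205-35645661. Its −log10 q was 12.2 in young replicate 1 and 10 in young replicate 2, its fold was 6.73 and 6.67, and the summits were 7 bp apart. By the same measure, next came a region 57223 bp from an end of Cav2, a caveolin gene, at chr6:17223740-17224185 with 10.3 and 9.35. A region 8219 bp from Hes1, a Notch target gene that encodes a transcriptional repressor, had 11.8 and 8.07. By −log10 p these regions stood above the median of each list, at percentiles 60.2 to 65.4 in young replicate 1 and 61 to 66.9 in young replicate 2. The highest percentile of any member was 71.6 in young replicate 1 and 77.9 in young replicate 2.

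The rest of the 15 strongest members by the lower of their 2 values were nearest to Gm41099, Ccdc42, Gm5640, Luzp2, Camk1d, St7, Tmed3, Gpa33, Spock2, Foxn3, Kifc1 and Sephs1. Their lower −log10 q lay between 7.11 and 9.03. Of the 15, 2 lay within 1 kb of a gene end, Gm5640 at 162 bp and Kifc1, a kinesin motor gene, at 267 bp. The Kifc1 region was 8693 bp from the nearest listed gene start. The farthest of the 15 from a gene end was inside Camk1d, a calcium-dependent kinase gene, 195614 bp from its nearer end. Spock2, a proteoglycan gene, was the only one of the 15 without a broad peak in either aged library. At the other edge, the weakest members were near Supt3 (1.304 and 1.45) and Sugct (1.31 and 1.52). The regions just outside the minimum lay near Sp9 (1.40 and 1.300) and Jade1 (1.299 and 1.96), so that members and non-members met without a gap.

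Fold values of the weak peaks were not continuous. In each library the common values were whole multiples of a single step, within a tolerance of 0.002. The step was 0.332 and 0.371 in the young libraries and 0.326 and 0.396 in the aged ones, replicate 1 first. As background, MACS reports fold as fragment pile-up over its expected value, so whole steps arise where the expected value is the same at many places. On such steps a peak needed 9 of them in young replicate 1 (fold 2.99, −log10 q 1.75) and 8 in young replicate 2 (fold 2.96, −log10 q 1.55) to pass the minimum. The step below gave 1.15 and 0.938, under the minimum.

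Many members sat on the first step that passes. In young replicate 1, 236 regions lay at 9 steps, 206 at 10, 134 at 11 and 109 at 12. For young replicate 2 the numbers were 222 at 8 steps, 211 at 9, 169 at 10 and 132 at 11. Over these steps the numbers thus became smaller with each further step in both libraries. The lowest step at which aged narrow peaks were commonly listed was 7 in aged replicate 1 (fold 2.28) and 6 in aged replicate 2 (fold 2.37). Peaks off the steps are not bounded by these levels.

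By these steps the members were divided into groups. In 883 regions (67.5%) the fold lay on a whole step in both young libraries, and in 318 (24.3%) in neither. Regions off the steps had an aged narrow peak within 500 bp in 25.8% of cases, against 7.81% of those on the steps. They lay within 1 kb of a gene end in 7.37% of cases against 3.99%. Every member found in the authors' narrow table and 17 of the 23 found in their broad table were off the steps in both libraries, and 2 of the 23 were on them in both. This grouping was made after the values were seen and carries no test. The steps depend on the expected value at each place. Whether the differences follow from how the groups are defined was not tested.

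**Figure D3:**
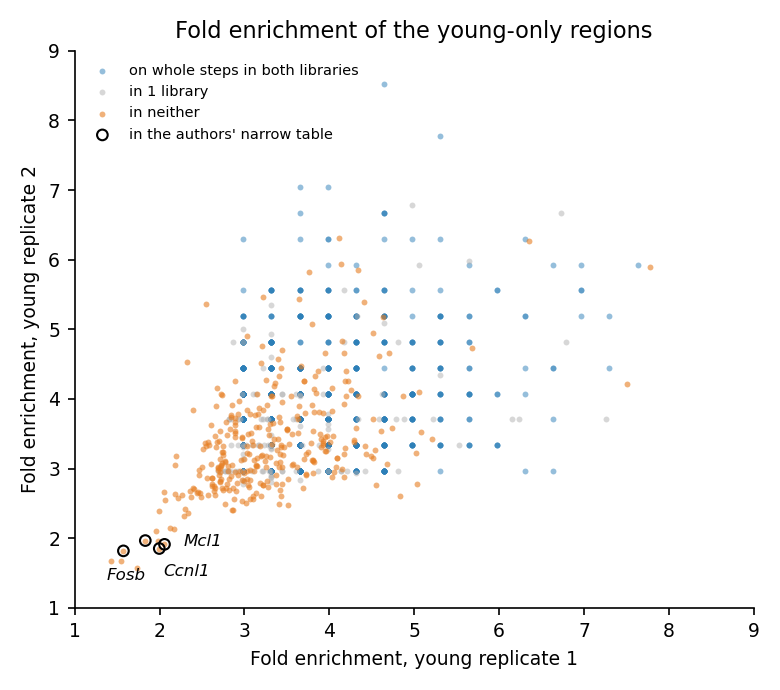
Fold enrichment over background of each young-only region in young replicate 1 (x axis) and young replicate 2 (y axis), coloured by whether the value lies on a whole step in both libraries, in 1 or in neither. The blue points form a grid whose first lines are at 2.99 and 2.96, and the 4 members in the authors' narrow table (circles), Fosb, Ccnl1 and Mcl1 among them, lie together near a fold of 2.

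Absence of an aged narrow peak seldom meant absence of listed aged signal. The deposited broad lists go down to a −log10 p of 1 and the narrow lists to 2, so the broad lists hold weaker signal. They are also long, with 322627 and 468792 intervals in the aged and 242700 and 461860 in the young libraries, replicate 1 first. How often such lists overlap any merged region or arbitrary sequence was not measured. A broad peak overlapped 85.7% of young-only regions in aged replicate 1 and 84.2% in aged replicate 2. In 1267 regions (96.9%, exact 95% binomial interval 95.8 to 97.7, which covers counting error only) at least 1 aged library had a broad peak, and in 955 (73.0%) both had. Regions with an aged broad peak that itself reached a q of 0.05 numbered 160 (12.2%).

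For broad peaks of any strength the other pairs had similar shares. Of the regions open in 1 mixed-age pair only, 94.7% to 98.2% had a broad peak in a library that lacked the narrow one, and of the aged-only regions 93.3% had a young broad peak. For broad peaks that reached a q of 0.05 the other 5 pairs differed more: the share was 11.2% for young replicate 2 with aged replicate 1 and 18.7% to 20.3% in the other 4, against 12.2% of young-only regions. The nearest aged narrow peak was 1 bp away at the closest, 3749.5 bp in the median and over 10 kb for 299 regions (22.9%). It lay within 500 bp of 166 regions (12.7%) and within 100 bp of 20. The closest was next to a member inside Rp2, 1 bp from a peak of aged replicate 2, and another near Ltbp2 was 3 bp from a peak of aged replicate 1.

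No broad peak of either aged library touched 41 young-only regions (3.13%). In this group the median of the lower −log10 q was 1.78, the median width 318 bp and the median distance to an aged narrow peak 5989 bp. None of the 41 lay within 1 kb of a gene end. The strongest was the one in Spock2 (chr10:60124163-60124326), with a −log10 q of 8.92 and 7.14 and a fold of 5.97 and 5.56. It was followed by a region inside Rsl24d1, a ribosome biogenesis gene, with 6.69 and 3.32. A region inside Ppargc1a, which encodes a coactivator of mitochondrial genes, had 3.10 and 3.71. Bcl11a, a transcription factor gene needed for lymphoid development, also had a member of this kind, with 1.75 and 3.71, though 989934 bp away from its nearer end. The group was looked at after its values were seen.

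**Figure D4:**
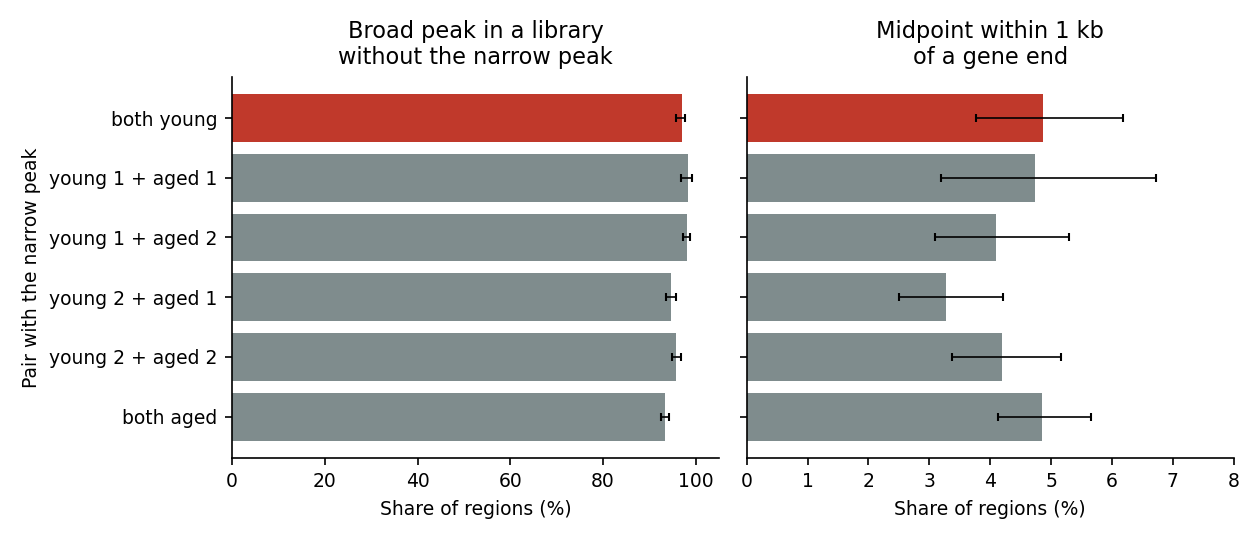
Left, the share of regions with a broad peak in at least 1 of the 2 libraries that lack the narrow peak. Right, the share whose midpoint is at most 1 kb from an end of a gene, for each pair of libraries. Bars start at 0 and error bars are exact 95% binomial intervals. The young pair (96.9% and 4.86%) lies close to the other pairs on both.

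The authors' deposited tables list sites called different between the ages, with log2 mean read levels, a log2 ratio of aged over young and an FDR. They rest on the same 4 libraries as the choice of members, so they describe the members and do not test them. Listed as lost with age in the authors' deposited narrow table were 4 young-only regions (0.306%), against 2.7% of all merged regions. A lost site of the authors' deposited broad table was overlapped by 23 (1.76%), against 0.965% of all merged regions. No young-only region overlapped a gained site of either deposited table, of which merged regions had 0.0149% (narrow) and 0.165% (broad). At such small shares a count of 0 says little about the members. Of the aged-only regions, 0.0317% overlapped a lost site of the authors' deposited narrow table, and 0.317% a lost and 2.91% a gained site of the broad one. Of the sites that the authors' deposited narrow table lists as lost, 99.8% overlapped a region with narrow peaks in all 4 libraries.

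Of the 4 members of the authors' deposited narrow table, those at Fosb, Ccnl1 and Mcl1 are described. Inside Fosb, an immediate early gene whose product joins the AP-1 factor, the region chr7:19304932-19305687 had a −log10 q of 2.06 and 3.14 in the young libraries. The authors' deposited table gives it a level of 7.63 in aged and 8.98 in young cells, a log2 ratio of -1.35 (FDR 4.78e-10). Inside Ccnl1, a cyclin gene tied to splicing, chr3:65955997-65956697 had 2.56 and 1.53, and the authors' deposited table lists 6.50 in aged and 8.20 in young cells, a log2 ratio of -1.70 (FDR 4.78e-10). Both were thus weak by q and yet first in that table by FDR among the members.

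Inside Mcl1, a survival gene that stem cells depend on, chr3:95662360-95663192 had a −log10 q of 3.18 and 1.73. The authors' deposited table lists 6.57 in aged and 8.08 in young cells, a log2 ratio of -1.51 (FDR 3.44e-07). These 3 had low fold values in the young libraries, from 1.57 to 2.06, and an aged narrow peak between 456 and 808 bp away at the nearest. At least 1 aged library had a broad peak at each of the 3.

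Young fold values under 2 in both libraries were found at 7 members. They included the regions of Fosb and Ccnl1, one inside Pcf11, a gene of transcript 3′ end processing, and one at chr9:3010905-3011083, which lay 324237 bp from its nearest gene Alkbh8. A further 2 lay on an unplaced scaffold. Of the 7, 4 overlapped a site of the authors' deposited tables. This set was picked after its values were seen.

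In the broad table the members were led by Mcl1, followed by Hmgb2, Pcf11 and Slc6a17. Near Hmgb2, a chromatin protein gene, a region with a −log10 q of 2.12 and 3.16 lay in a site with a log2 ratio of -1.71 (FDR 1.38e-06) in the authors' deposited table. For Pcf11, with 2.08 and 1.74, the authors' deposited table gives -1.36 (FDR 1.26e-05), and for Slc6a17, with 3.38 and 3.62, it gives -1.67 (FDR 2.19e-05). Inside Chd1, a chromatin remodeller gene, the young values were 4.90 and 5.36 and the ratio in the authors' deposited table was -2.53 (FDR 0.0106). Among the 15 members ranked first by FDR over both tables the steepest ratio was near 1600014C23Rik, with -2.63 (FDR 0.021) in the authors' deposited table. That table gives its site levels of 2.74 in aged and 5.37 in young cells, and the Chd1 site 3.35 and 5.88. These were the lowest levels among the 15 in both ages. The Htra3 region lay in a broad site with -1.14 (FDR 0.0301) in the authors' deposited table.

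Further broad sites with a member, ranked by FDR, were nearest to Adam6a, Ccnl1, Tmem121, Nrcam, Vegfc, Ltbp2 and Wwox. Their log2 ratios in the authors' deposited table ran from -0.39 at Vegfc to -2.0 at Wwox. The region named for Adam6a, chr12:114379953-114380331, lay within the immunoglobulin heavy chain locus.

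By position the members were mostly distal. On the main chromosomes lay 1296 of them, and 12 were on other sequences. The midpoint of 63 (4.86%, interval 3.76 to 6.18) lay within 1 kb of an end of a protein-coding gene, against 10.2% of all merged regions and 18.4% of regions with narrow peaks in all 4 libraries. The share was 4.85% in aged-only regions and 3.28% to 4.73% in the mixed-age pairs, and the intervals of all these pairs overlapped that of the young-only regions. Within 1 kb of a gene start lay 48 (3.70%). Inside a gene body lay 51.6%, and 32.2% were more than 50 kb from any gene end. The median distance to a gene end was 24356 bp.

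Young-only regions were 375 bp wide in the median, from 151 to 1246 bp. Aged-only regions had a median of 313 bp, the mixed-age pairs 304 to 355 bp and regions in all 4 libraries 746 bp. The widest members were nearest to Glrp1 (1246 bp), Tmem121 (1224 bp), Polg (1186 bp), Nr4a3 (1147 bp) and Dpp6 (1038 bp). The Polg region also covers the promoter of Mir9-3hg, a host transcript of a neural microRNA, where the −log10 q was 4.61 and 2.95.

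Members near gene ends included several genes known in blood cells, named here after their values were seen. Rara, the retinoic acid receptor that steers myeloid differentiation, had a region 64 bp from a gene end with a −log10 q of 1.72 and 3.68. Lyn, a kinase of myeloid and B cells, had one at 785 bp with 1.69 and 1.55. Nt5e, which encodes the surface enzyme CD73, had one at 757 bp with 1.75 and 1.55, and Sirt1, a deacetylase gene studied in ageing, had one at 381 bp with 5.41 and 3.71. The Sirt1 region was thus the strongest of these 4 in both libraries. None of the 4 was within 1 kb of a listed gene start. Not every gene has a start listed, and a listed one need not be the only start. The gene ends carry no strand, so a region at a gene end, such as that of Rara, may still lie at a start. The nearest listed start lay 9494 bp away for Rara, 284923 bp for Lyn, 43549 bp for Nt5e and 20150 bp for Sirt1.

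The 17 promoter windows under a member resembled the average promoter more than the commonly open one. Their median GC content was 51.3%, with 5 CpG pairs per window, against 61.0% and 20 in the 16279 windows under a region of all 4 libraries. All 32851 windows had medians of 52.7% and 7. The 6 motifs were searched on both strands and were chosen with earlier results known.

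The letters bound by RUNX factors, TGTGGT, stood in 4 of the 17 windows (23.5%), those of Gm5640, Bex6, Clec5a and Nme8, against 16.8% of all windows. The GC box, GGGCGG, stood in 5 (29.4%) against 35.7% of all windows and 62.3% of those under a region of all 4 libraries. The core of the YY1 motif, CCATNTT, stood in 3 (17.6%) against 16.1%. The core of the cyclic AMP response element, TGACGT, stood in 2 (11.8%) against 7.51%. The AP-1 motif, TGANTCA, stood in none of the 17, against 7.81% of all windows, and it shares its first letters with the cyclic AMP one. The motif of blood-cell zinc finger factors of the GATA family, written AGATAA, also stood in none, against 11.2%. With 17 windows these shares are counts of letters and no more. In the printed stretches the RUNX letters appear in Gm5640 and Clec5a, and Hdc holds a YY1 core and a GC box.

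The nearest genes were spread widely. The members had 1162 distinct nearest genes, of which 1045 were nearest to 1 member, 101 to 2 and 16 to 3 or more. Prkcq, a protein kinase C gene best known from T cells, had 4, of which 3 lay inside the gene, with a −log10 q from 1.75 to 5.32 in young replicate 1 and 1.55 to 2.95 in young replicate 2. Angpt1, a ligand of the Tie2 receptor that acts in the stem cell niche, had 3 inside the gene, with 1.75 to 2.1 and 3.12 to 6.09, so young replicate 2 was the stronger library at each. Rin3, a gene of endocytic transport, had 3 with 1.39 to 2.41 and 1.41 to 4.35. Neighbouring members lay 1152478 bp apart in the median, and 13 neighbouring pairs lay within 10 kb.

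Marker genes of blood cell types were checked for narrow peaks in each library. All 26 listed hematopoietic stem cell genes had a narrow peak past the q minimum within 1 kb of a gene end in every library. Of 16 T, B and NK cell genes, 6 and 8 had one in the young and 9 and 9 in the aged libraries. Of 18 myeloid genes the counts were 10, 10, 12 and 11, and of 15 erythroid and megakaryocyte genes 11, 11, 10 and 12, in the same order. The share of all protein-coding genes with such a peak was not measured, so these counts have no base rate beside them. By another measure, 16279 of all 32851 promoter windows lay under a region with narrow peaks in all 4 libraries. The part of other blood cells in the young-only calls was not tested. Of the members, none was nearest to a listed T, B or NK cell gene (0.0399% of merged regions were) or to an erythroid or megakaryocyte gene (0.0466%). At these shares a count of 0 among 1308 regions says nothing about the members.

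Among 10 gene lists, immediate early genes, which respond within minutes to stimuli, had the most members by count. They were nearest to 8 members (0.617% of members, against 0.416% of merged regions and 0.798% of aged-only regions), through 7 of 30 genes. Per 100 merged regions nearest to the list this was 1.07, below the 1.47 of chromatin modifier genes. A region 41043 bp from Fos, which encodes an AP-1 subunit, had a −log10 q of 3.84 and 6.23. Klf6, a zinc finger factor gene, was nearest to 2. The stronger, 184263 bp away, had 3.84 and 2.95, and the weaker, 70578 bp away, had 2.41 and 1.55. Nr4a3, a nuclear receptor gene that restrains stem cell proliferation, had a region of 3.77 and 2.81 at 9679 bp. Btg1, an antiproliferative gene, had one of 1.37 and 2.19 at 4126 bp. Fosb, Mcl1 and Ccnl1 are the remaining ones, described above.

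Chromatin modifier genes were nearest to 5 members (0.386% against 0.189% of merged regions), through 4 of 23 genes. Dnmt3a, a DNA methyltransferase gene often mutated in clonal blood disorders, had 2. The one outside the gene, 14682 bp away, had a −log10 q of 2.41 and 7.14. The one inside it had 1.55 and 1.34. Tet2, which acts in the removal of DNA methylation, had a region of 3.10 and 3.71 at 100656 bp from the gene. Eed, a subunit gene of the Polycomb repressive complex, had one of 2.41 and 1.55 at 937 bp from a gene end. The nearest listed gene start was 12161 bp from it. Sirt1 is the fourth gene. With 5 regions this share is a count and was not tested.

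Stem cell genes were nearest to 3 members (0.231% against 0.503% of merged regions). Meis1, a homeobox cofactor gene, had a region of 2.41 and 6.23 that lay 451391 bp away. A region of 2.41 and 2.23 lay 28151 bp from Erg, an ETS factor gene. Kit, the stem cell factor receptor, had one inside the gene of 1.69 and 1.55. Genes known to rise in old stem cells also had 3 (0.231% against 0.315%). At Itgb3, an integrin of megakaryocytes and old stem cells, the region lay inside the gene (2.97 and 2.21). At Cyp26b1, an enzyme that breaks down retinoic acid, it lay 21206 bp away (1.75 and 2.23). At Neo1, a netrin receptor, it lay inside the gene (2.41 and 1.55). Both lists thus held members of low strength only, apart from Meis1 in young replicate 2.

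Progenitor and lymphoid genes were nearest to 4 members (0.309% against 0.246% of merged regions). Lef1, a factor of the Wnt pathway in lymphocytes, had 2. The stronger lay 131838 bp away, with a −log10 q of 2.41 and 4.52. The weaker, inside the gene, had 1.75 and 1.55. A region of 2.16 and 1.44 was nearest to Rag2, a recombinase gene of lymphocytes. It lay 27258 bp from Rag2 and inside another gene, Iftap. Bcl11a is described above. Among myeloid genes there was a single member, 22697 bp from Cebpa, which encodes a factor that drives granulocyte fate. It had 1.65 and 1.52 (0.0772% of members against 0.0699% of merged regions). Among cell cycle and DNA damage genes there was one 14598 bp from Cdkn1a, the p21 cell cycle inhibitor, with 3.80 and 3.91 (0.0772% against 0.198%). Interferon and inflammation genes had none, against 0.111% of merged regions. The antigen receptor loci held 8 members (0.612%), against 0.359% of merged regions and 0.285% to 0.829% in the other 5 pairs. Of the 8, 3 lay in the heavy chain locus and 3 in the T cell receptor alpha locus.

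Chromosomes 12 and 19 held larger shares of the young-only regions than of any other pair. Chromosome 12 held 83 (6.35%, interval 5.09 to 7.81), against 3.74% to 4.43% in the other 5 pairs and 4.19% of merged regions. Chromosome 19 held 50 (3.82%, interval 2.85 to 5.01), against 1.99% to 2.44% and 2.32%. Chromosome 9 held a smaller share, 41 regions (3.13%), against 4.48% to 6.21%. Chromosomes 4, 6 and Y lay slightly above the range of the other pairs and 10, 13 and 14 slightly below it. With 21 chromosomes looked at, after the values were seen, this is a description with no test.

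In the full narrow lists chromosome 12 held 4.17% to 4.24% of the peaks of each library and chromosome 19 held 2.45% to 2.66%. On chromosome 12, 37.3% of the young-only regions lay beyond 100 Mb, against 16.4% of the aged-only and 24.5% of merged regions. On chromosome 19, 46.0% lay beyond 40 Mb, against 23.8% and 38.3%. These shares rest on 31 of 83 and 23 of 50 young-only regions. The cut points were not planned, and the mixed-age pairs were not split in this way. The share on chromosome 12 was 6.18% and that on chromosome 19 was 3.52% when every library had the same number of peaks. With 1 young library left out, regions of a single young library enter. The shares were then 4.47% and 2.13% without young replicate 1, and 4.87% and 2.88% without young replicate 2. With 1 aged library left out, both young libraries were still required. The shares were then 5.6% and 3.9% without aged replicate 1, and 4.89% and 3.5% without aged replicate 2. Only 3 of the 83 regions on chromosome 12 lay in the heavy chain locus.

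**Figure D5:**
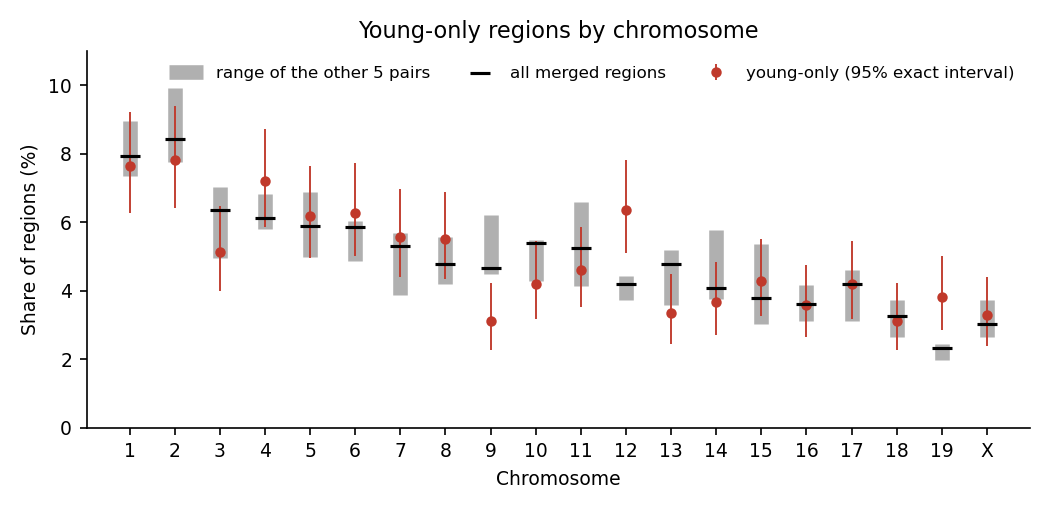
Share of the 1308 young-only regions on each chromosome (red points with exact 95% binomial intervals), the range of the same share over the other 5 library pairs (grey) and the share of all merged regions (black). Chromosomes 12 and 19 lie above and chromosome 9 below the grey range by the widest margins. Chromosome Y and other sequences are not drawn.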

How the data were processed

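Per the labels, 4 ATAC-seq libraries were tagmented (1 h, 37 °C) and amplified (11 to 12 cycles), and fragments of 150 to 1000 bp were kept. The submitters' processing notes name FastQC 0.11.9, BWA 0.7.17, MACS2 2.1.2, DiffBind 2.14.0 and GRCm38. Read shifting, duplicate removal and blacklist filtering are not given in the sources used here, and read depth is unknown. The authors deposited a narrow and a broad list per library, 8 lists in all, with a fold enrichment (a ratio), a −log10 p and a −log10 q for each peak, computed within that library. The authors also deposited 2 tables of differing sites with log2 levels, a log2 ratio, a p-value and an FDR, cut at 0.05.

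Here intervals were merged, regions chosen by the rule and set beside the other library pairs, in Python 3.11.15 (pandas 2.3.3, numpy 2.4.6), with scipy 1.17.1 for exact intervals and matplotlib 3.10.9 for plots. Peaks that touch without sharing a base were joined. Merging and distances were tested on simulated data and against bedtools 2.31.1. Genes are the 21887 protein-coding genes of the RefSeq table of GRCm38.p6. That table gives no strand, so distances are to either end of a gene, which need not be its start. Starts come from promoter windows, which 17492 of these genes have. Members, lists and motifs were chosen with earlier results of these data known. No test was run, because the members were chosen on all 4 libraries and 2 against 2 libraries allow no exact permutation p below 0.333.

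Named are the 15 members with the highest lower −log10 q, up to 15 in the authors' tables by FDR, up to 4 per gene list by the lower −log10 q, the 2 regions on each side of the minimum, the 5 widest and genes nearest to 3 or more members. The further members named for a list with 8 or 5 members, at gene ends, at promoters and without aged broad peaks were added after their values were seen. Alternatives were a −log10 q minimum of 2, of 5 or none, weak aged peaks allowed, no aged broad peak, no aged narrow peak within 500 bp, equal or 50000 peaks per library, main chromosomes, shared length and each library left out. A member that the naming rule selects is not reported here.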

Additional observations from a re-analysis of the deposited data

How the results depend on the processing

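No paired analysis was possible because no result comes from a test. With a −log10 q minimum of 2 there were 760 young-only regions, 0.361 per aged-only region, with a median width of 371.5 bp. With a minimum of 5 there were 77, or 0.192 per aged-only region and 0.67 per region of the median other pair. Their median width was 347 bp, 98.7% had an aged broad peak and 0% were in the authors' narrow table. Without a minimum there were 2959, with ratios of 0.56 and 0.798, a width of 354 bp and 94.8% with an aged broad peak. Allowing weak aged peaks gave 2098, 0.458 per aged-only region, 399 bp and 98%. Requiring no aged broad peak gave 41, with ratios of 0.194 and 0.477, 318 bp, 0% near a gene end and 0% in the authors' narrow table.

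With equal numbers of peaks there were 2185 regions, 0.669 per aged-only region, and the ratio to the median other pair turned to 1.13 (387 bp wide, 98.1% with an aged broad peak). With the 50000 strongest peaks both ratios turned, to 1.08 and 1.55, with 594 bp, 8.98% near a gene end, 100% with an aged broad peak and 1.53% in the authors' narrow table. Requiring a shared length gave a width of 364 bp. The cause was not tested.

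Leaving out 1 library gave 3696 (without aged replicate 1) to 9261 regions (without young replicate 1), and 3948 and 5029 without aged replicate 2 and young replicate 2. The ratio to aged-only regions ran from 0.204 without aged replicate 1 to 1.57 without young replicate 1, where it turned, and was 0.67 without young replicate 2. Fewer libraries must then share or lack a peak. Widths ran from 240 to 409 bp and the share with an aged broad peak from 83.7% to 91.6%. The share near a gene end ran from 4.20% to 5.29%. Keeping touching peaks apart, an alternative chosen after seeing the data, gave 1309 regions, of which 1308 were the same. The alternatives for chromosomes 12 and 19 were also chosen after seeing the data. The share on chromosome 19 was 1.3% at a −log10 q minimum of 5, a setting that leaves 77 regions. Read depth is unknown, so no interval for the strength of a peak can be given.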
